A study of Mus musculus with 6 samples.

Results

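The 49 genes described here encode the ligands, receptors, extracellular antagonists, latent binding proteins, Smads and Id proteins of the TGF-beta and BMP pathways. They were chosen by symbol and role, and all 49 were found among the 39179 genes of the count table. Their transcripts were counted by RNA sequencing in 6 primary osteosarcomas, the bone-forming tumors that arise in mice with a mutated copy of the tumor suppressor gene Nf2. The 3 samples labelled CD44+/+; Nf2Δ2/+ (mice No244, No316 and No368, here Cd44+/+) were compared with the 3 labelled CD44-/-; Nf2Δ2/+ (No203, No279 and No364, here Cd44-/-). The comparison addresses how the pathway genes differ between tumors with and without the hyaluronan receptor CD44. All 6 mice carried the same Nf2Δ2/+ genotype, so none was wild type for Nf2, and all had the mixed C57BL/6 x 129/Sv x FVB background. The labels give each library its own mouse number and give no ages. Whether No316 and No368 are separate tumors is in doubt, since their counts were nearly the same. The tissue is labelled osteosarcoma, whereas the extraction text of the labels mentions cell lines.

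Ligands of this family are secreted, in part bound to latent binding proteins in the extracellular matrix, and are held back by antagonists such as gremlin, chordin-like 1 and follistatin. They bind pairs of type I and type II receptor kinases, which phosphorylate the receptor Smads. These enter the nucleus with Smad4, where the BMP branch induces the Id genes and both branches induce the inhibitory Smads, Smad6 and Smad7. BMPs were first known for inducing bone, and TGF-beta is stored in bone matrix, which makes the family a usual subject in bone tumors.

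The libraries held between 18076388 and 26954142 counts, and 3 counts corresponded to 0.0988 to 0.252 CPM (counts scaled to library size, with the trimmed mean of M values, TMM). No316 and No368 differed by little more than sampling noise: 87.2% of 16671 genes lay within the 95% range of binomial sampling, against 15.8% to 23.9% in the 14 other pairs of libraries. They may be 1 tumor or library deposited under both numbers, and were counted as 1 sample, which left 2 Cd44+/+ samples and 3 Cd44-/- samples, and their separate values are given throughout. Cd44 itself measured 137.1, 243.3 and 240.0 CPM in Cd44+/+ tumors and 19.2, 15.7 and 59.2 CPM in No203, No279 and No364. Xist and Y-linked genes followed the genotype in part. No279 and No364, both Cd44-/-, had Xist below 1 CPM and carried Ddx3y. The other 4 tumors, which are No203 and all those labelled Cd44+/+, had Xist between 857.3 and 1240.0 CPM. Sex and genotype can therefore not be fully told apart. The Y-linked Eif2s3y was at 3.27 CPM in No244 and at 0 in No316, No368 and No203. The share of mitochondrial counts was 55.2% for No244 and 5.94% to 12.5% for the other libraries.

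Markers of the labelled tissue were uneven. The 8 osteoblast markers summed to 17100 to 27910 CPM in the Cd44+/+ tumors, and to 38970, 13490 and 2906 CPM in No203, No279 and No364. The markers did not move together. The bone matrix gene Col1a1 measured 8470, 16290 and 16900 CPM in Cd44+/+ tumors and 29380, 11960 and 732.7 CPM in No203, No279 and No364, and Runx2, an early osteoblast factor, 94.9, 121.6 and 128.2 CPM against 172.9, 68.1 and 5.51 CPM. Spp1, osteopontin, was between 3520 and 6408 CPM against 3140, 1440 and 2139 CPM. Sp7, Ibsp, Bglap, Dmp1 and Alpl were far lower in No279 and No364 than in the other tumors, though none of the 8 was at 0: Sp7, the osteoblast transcription factor, measured 191.9, 191.8 and 198.7 CPM in Cd44+/+ tumors and 332.5, 3.95 and 0.301 CPM in No203, No279 and No364. The 10 hepatocyte markers summed to 137600 CPM in No364 and to 83.2 to 194.5 CPM elsewhere. Skeletal muscle markers summed to 17140 CPM in No244 and to 12.9 to 546.1 CPM elsewhere. In bulk tissue, fewer cells of a type and less RNA per cell cannot be told apart.

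None of the 48 members tested passed an adjusted p of 0.05 between the genotypes (edgeR quasi-likelihood test, Benjamini-Hochberg adjustment over 17844 genes, smallest member value 0.818), as was the case for all genes, of which 0.0% were called. At an unadjusted p under 0.05, 5 of 48 members (10.4%) were reached, against 4.26% of all genes. Of these, Gdf5 and Chrdl1 were higher in Cd44-/- tumors (1.82% of all genes were), and Bmp7, Bmp8a and Acvrl1 were lower (2.45%). The count of 5 became 1 without No244 (1.32% of all genes), 1 without No279 (4.29%), 9 without No203 (9.87%) and 4 without No364 (3.69%). By DESeq2 with the near-identical pair summed, 0 members were called, against 0.797% of all genes (0.508% higher and 0.289% lower in Cd44-/- tumors). By DESeq2 on the 6 libraries as deposited, 4 members were called, Bmp7, Bmp8a, Gdf5 and Chrdl1, against 2.33% of all genes (1.21% higher and 1.12% lower), but this run counts No316 and No368 as separate samples. It gave no adjusted p to 4 of the members tested, Bmp3 and Fstl1 among them. Gdf6 was too low to test, with counts of 0, 6 and 3 in the Cd44+/+ libraries and 2, 5 and 14 in the Cd44-/- libraries.

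**Figure D1:**
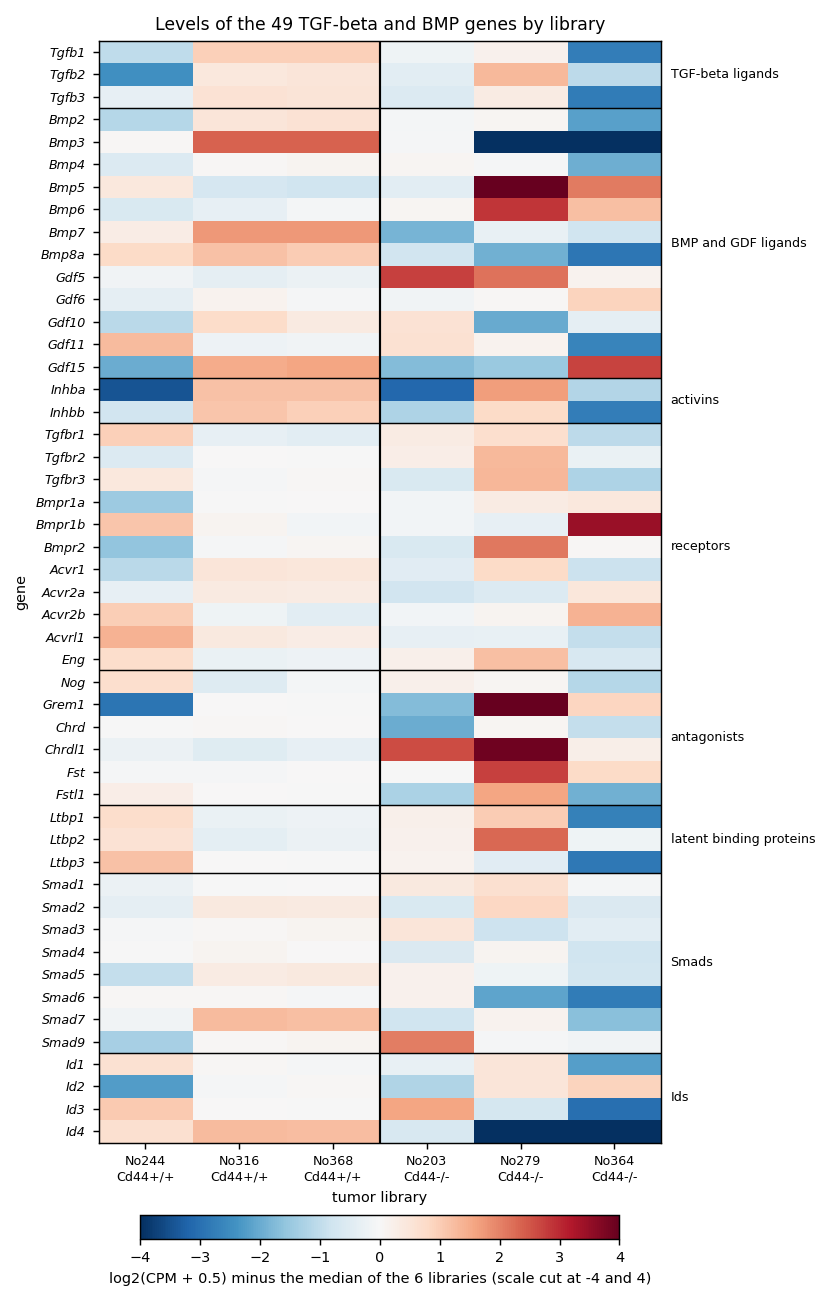
Levels of the 49 genes (vertical axis, by role) in each of the 6 tumor libraries (horizontal axis), as log2(CPM + 0.5) minus the gene's median over the libraries, with the color scale ending at -4 and 4. Of the 48 genes tested, 18 had their highest value in No279 and 22 their lowest in No364.

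The members varied more between tumors than most genes did. Their median range over the 6 libraries was 3.31 on the log2 scale, against 2.16 for all genes tested. No279 held the highest value for 18 of 48 members (37.5%, against 21.9% of all genes), and No364 the lowest value for 22 of 48 (45.8%, against 25.3%), although both are Cd44-/-. These traits were not particular to the members. A further 57 pathway genes, described below, had a median range of 3.27, with 31.6% highest in No279 and 45.6% lowest in No364. The members split 22 with a positive and 26 with a negative log2 difference (Cd44-/- minus Cd44+/+), with a median of -0.10 against 0.12 for all genes. Without No364 these medians were 0.16 and 0.04.

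The genotypes did not overlap over the 6 libraries for 8 of 48 members (16.7%), against 18.7% of all genes, so the share was near the background. The 3 higher in all Cd44-/- tumors were Bmp6, Gdf5 and Chrdl1 (9.27% of all genes were higher), and the 5 lower were Bmp3, Bmp7, Bmp8a, Acvrl1 and Id4 (9.42%). Bmp6, Bmp8a, Gdf5, Acvrl1 and Id4 are each overlapped by another annotated gene, whose reads may not be told apart from theirs. On GRCm38 the lower genes lie at chr5:98854415-98884396 (Bmp3), chr2:172868012-172940321 (Bmp7), chr4:123312645-123343252 (Bmp8a), chr15:101128522-101145336 (Acvrl1) and chr13:48261228-48266026 (Id4). The higher genes lie at chr13:38345107-38500302 (Bmp6), chr2:155941023-155945367 (Gdf5) and chrX:143285674-143394262 (Chrdl1).

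**Figure D2:**
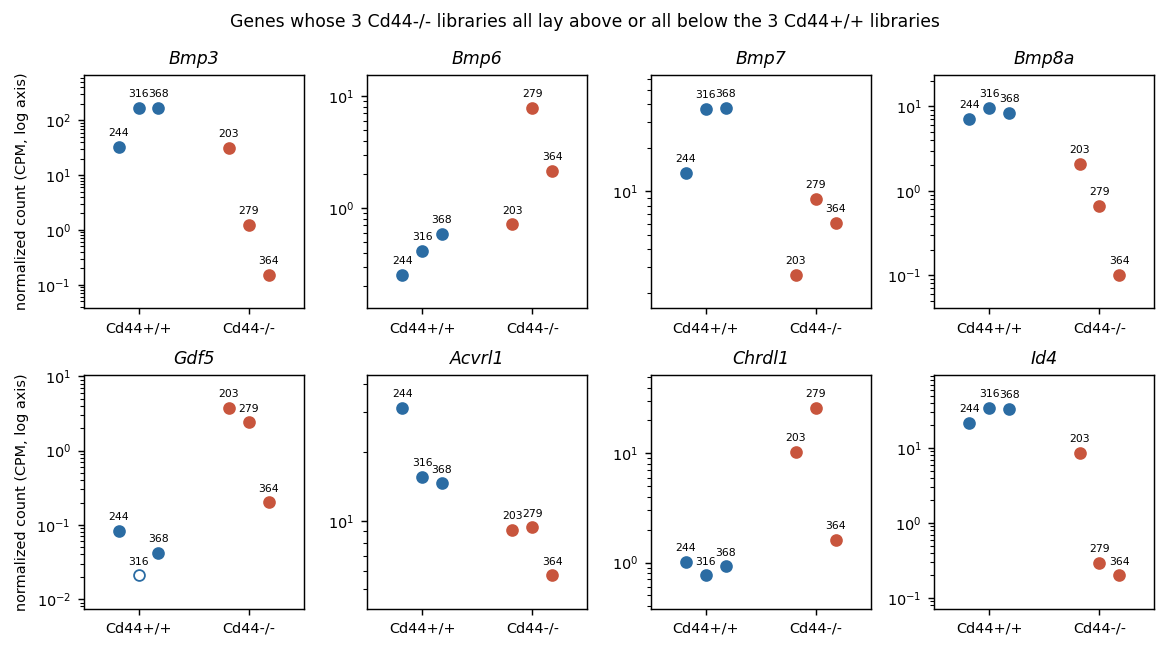
CPM (log axis) of the 8 genes whose genotypes did not overlap, with 1 point for each library, labelled by mouse number. The open circle marks Gdf5 at 0 counts in No316, drawn below the lowest value above 0, and the 3 Cd44-/- points span over 10-fold for several of the genes.

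Among the BMP ligands, Bmp3, which antagonizes osteogenic BMPs, measured 33.0, 166.3 and 168.9 CPM in Cd44+/+ tumors and 31.4, 1.22 and 0.150 CPM in No203, No279 and No364. No203 lay just under No244, so the separation rested on a small gap at that end. The log2 difference was -3.22 ± 1.89 (SE, edgeR adjusted p = 0.818), -2.64 without No364 and -7.21 without No203, and -5.19 by limma-voom. Bmp8a, a BMP close in sequence to Bmp8b, whose reads may be split with it, was at 7.05, 9.58 and 8.39 CPM against 2.10, 0.659 and 0.100 CPM. Its log2 difference was -3.07 ± 1.2 (SE, edgeR adjusted p = 0.818, and 0.0495 by DESeq2 on the 6 libraries), and -4.42 without No203. With No316 and No368 summed, the DESeq2 adjusted p was 0.2635. Bmp8b was at 3.69, 3.47 and 3.65 CPM in Cd44+/+ tumors and 15.4, 3.29 and 5.41 CPM in No203, No279 and No364. It did not share the fall of Bmp8a in No203, and how reads were split between these genes was not tested. Id4, an inhibitor of basic helix-loop-helix factors known as a BMP target, was at 21.7, 33.8 and 33.0 CPM against 8.55, 0.296 and 0.201 CPM, with a log2 difference of -3.20 ± 1.59 (SE, edgeR adjusted p = 0.818), -6.79 without No203 and -5.04 by limma-voom.

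Within the Cd44-/- group these 3 genes were highest in No203 and lowest in No364, with counts there of 3 (Bmp3), 2 (Bmp8a) and 4 (Id4). The summed osteoblast markers had the same order, but most of that sum was Col1a1 in No203 and No279. Alpl, Bglap, Dmp1 and Spp1 were higher in No364 than in No279. Ibsp, bone sialoprotein, measured 639.2, 1686 and 1686 CPM in Cd44+/+ tumors and 4811, 3.26 and 2.16 CPM in No203, No279 and No364. Alpl, alkaline phosphatase, was at 480.3, 617.8 and 647.7 CPM against 717.1, 7.14 and 18.8 CPM. In No203, where Sp7, Ibsp, Alpl, Runx2 and Col1a1 were above all Cd44+/+ tumors, Bmp8a and Id4 were still below the lowest Cd44+/+ tumor. Bglap, Dmp1 and Spp1 were below all Cd44+/+ tumors in No203, Dmp1 and Spp1 by a small margin. Bglap, osteocalcin, was at 3476, 2040 and 1831 CPM against 268.7, 4.77 and 6.52 CPM. Dmp1, a late osteoblast and osteocyte gene, was at 228.7, 167.5 and 176.9 CPM against 146.4, 0.362 and 0.501 CPM. The part of the osteoblast markers in these differences was not tested.

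**Figure D3:**
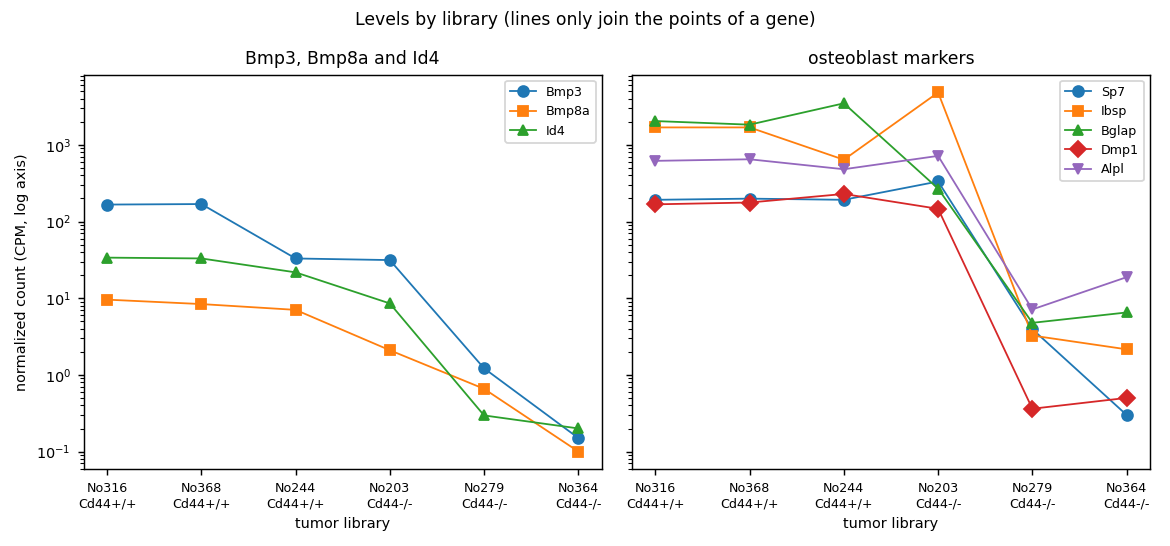
Bmp3, Bmp8a and Id4 beside osteoblast markers in the 6 libraries, in CPM on a log axis, where lines only join the points of a gene. Both sets are lower in No279 and No364 than in No203, and in No203 Sp7, Ibsp and Alpl lie above all Cd44+/+ tumors while Bglap and Dmp1 lie below them.

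Bmp7, a kidney and bone inducing ligand, had a different order. It measured 13.4, 37.2 and 37.7 CPM in Cd44+/+ tumors and 2.65, 8.89 and 6.07 CPM in No203, No279 and No364, so its lowest value was in No203. The part of the osteoblast markers in this difference was not tested. The mean was 25.4 ± 17.0 CPM (SD, n = 2) against 5.87 ± 3.12 CPM (SD, n = 3), and the log2 difference was -2.12 ± 0.77 (SE, edgeR adjusted p = 0.818) and -2.15 without No364.

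Gdf5, a ligand of joint and cartilage development, was at the limit of detection in Cd44+/+ tumors. It had counts of 1, 0 and 1 there, and 94, 73 and 4 in No203, No279 and No364, or 3.72, 2.40 and 0.201 CPM. The pooled ratio was 73.0 with an exact 95% interval of 19.9 to 608.0, which covers counting error only. The log2 difference was 5.58 ± 1.79 (SE, edgeR adjusted p = 0.818, and 0.0127 by DESeq2 on the 6 libraries), and No364 was close to the Cd44+/+ level. With No316 and No368 summed, the DESeq2 adjusted p was 0.068. The 5 chondrocyte markers summed to 11.6 to 40.5 CPM in the Cd44+/+ tumors and to 38.0, 174.8 and 25.2 CPM in No203, No279 and No364. The 40.5 CPM of No244 was mostly Col2a1 (38.3 CPM). The 174.8 CPM of No279 was mostly Acan (152.5 CPM), with Col2a1 at 0.626 CPM and Col9a1 at 0, so the markers did not move together. As a mean of log2 CPM over the list, No203 (2.21) and No279 (1.88), the tumors with most Gdf5, lay above the other 4 (-0.35 to 0.26), and the part of these markers in the Gdf5 difference was not tested.

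Bmp5 and Bmp6, closely related ligands, were both highest in No279. Bmp6 was at 0.252, 0.417 and 0.587 CPM against 0.712, 7.84 and 2.16 CPM, with a log2 difference of 3.20 ± 1.35 (SE, edgeR adjusted p = 0.818), and 1.91 without No279, and the No203 value was close to that of No368. Bmp5 was at 1.93, 0.625 and 0.545 CPM against 0.831, 34.1 and 7.12 CPM, so its genotypes overlapped at No203, and the log2 difference was 3.52 ± 1.65 (SE, edgeR adjusted p = 0.818), and 1.73 without No279. Per length, the leading BMP or GDF ligand was Bmp4 in No244, No203 and No279, Bmp3 in No316 (32.2% of the group) and No368 (31.9%), and Gdf15 in No364 (61.3%). Bmp4, with the highest mean over the libraries (8.74 RPKM, which is CPM divided by the kilobases of merged exons), had overlapping genotypes, at 16.5, 25.4 and 26.6 CPM against 26.0, 23.6 and 6.02 CPM. Its log2 difference was -0.20 ± 0.73 (SE, edgeR adjusted p = 0.963).

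The other ligands of this group overlapped between genotypes. Gdf15, a stress-induced ligand, was at 0.587, 11.6 and 12.5 CPM against 0.792, 1.05 and 27.7 CPM, and its log2 difference of 0.65 turned to -2.79 without No364. No364 was thus its highest tumor. Bmp2, an osteogenic ligand, lay between 6.77 CPM in No364 and 48.8 CPM in No368. Gdf11 ranged from 1.40 CPM in No364 to 28.4 CPM in No244, and Gdf10 from 0.231 CPM in No279 to 4.44 CPM in No316. Of the 11 ligands of the group that were tested, 4 had a positive log2 difference.

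Of the antagonists, Chrdl1, a secreted chordin-like BMP inhibitor, measured 1.01, 0.764 and 0.922 CPM in Cd44+/+ tumors and 10.3, 25.8 and 1.60 CPM in No203, No279 and No364. Chrdl1 is X-linked, and No279 and No364 differed from the other tumors in Xist. Its log2 difference was 3.77 ± 1.31 (SE, edgeR adjusted p = 0.818, and 0.00957 by DESeq2 on the 6 libraries), and 2.69 without No279. With No316 and No368 summed, the DESeq2 adjusted p was 0.103. Grem1, gremlin, reached 185.7 CPM in No279 and measured 0.420, 6.56 and 6.46 CPM in Cd44+/+ tumors and 1.62 and 12.1 CPM in No203 and No364. Its log2 difference of 4.22 ± 2.24 (SE, edgeR adjusted p = 0.818) fell to 0.99 without No279. Fst, follistatin, was also highest in No279, at 64.9 CPM, against 8.98, 9.06 and 9.52 CPM in the Cd44+/+ tumors and 9.14 and 16.4 CPM in No203 and No364, with a log2 difference of 1.73 ± 0.94 (SE, edgeR adjusted p = 0.818) that was 0.51 without No279. Fstl1, a secreted glycoprotein related to follistatin, was the most abundant antagonist per length (mean 72.2 RPKM) and was at 366.2, 303.3 and 299.8 CPM against 124.6, 901.7 and 78.6 CPM. Its log2 difference was 0.14 ± 1.16 (SE, edgeR adjusted p = 0.987), and -1.70 without No279. Nog, noggin, was at most 1.59 CPM in any tumor, and Chrd, chordin, was between 15.6 and 16.3 CPM in Cd44+/+ tumors and at 3.64, 16.7 and 7.92 CPM in No203, No279 and No364. Of the 6 antagonists, 5 were highest in No279.

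Among the receptors, Acvrl1, the type I receptor of endothelial cells, was at 31.2, 15.6 and 14.6 CPM against 9.14, 9.35 and 5.77 CPM. The Cd44+/+ mean was 23.2 ± 11.4 CPM (SD, n = 2) and the Cd44-/- mean 8.09 ± 2.01 CPM (SD, n = 3). The log2 difference was -1.50 ± 0.58 (SE, edgeR adjusted p = 0.818), -0.93 without No244, its highest tumor, and -1.32 without No364. Eng, the co-receptor of Acvrl1, was at 79.0, 39.6 and 42.0 CPM against 55.2, 111.9 and 30.7 CPM. The 7 endothelial markers summed to 199.4 to 238.1 CPM against 242.4, 351.7 and 90.8 CPM. The part of endothelial cells in the Acvrl1 difference was not tested. Tgfbr1, the type I TGF-beta receptor and the receptor with the highest mean per length (24.1 RPKM), ranked first in every tumor but No364, where Tgfbr2 did. It was at 251.9, 102.3 and 97.7 CPM against 164.6, 207.9 and 62.5 CPM. Its log2 difference was -0.27 ± 0.74 (SE, edgeR adjusted p = 0.953), and it was 0.08 without No364.

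The other receptors overlapped between genotypes. Tgfbr2, the type II TGF-beta receptor, was at 68.6, 101.8 and 100.3 CPM against 121.1, 248.6 and 84.6 CPM, with a log2 difference of 0.83 ± 0.67 (SE). Bmpr1a, a type I BMP receptor, was at 16.2, 44.1 and 45.4 CPM against 41.4, 56.5 and 60.2 CPM. Bmpr1b, its close relative, reached 6.37 CPM in No364 and was at most 0.839 CPM elsewhere. Bmpr2, the type II BMP receptor, was highest in No279 at 14.6 CPM and lay between 0.671 and 3.19 CPM elsewhere. The log2 differences of the activin and co-receptor genes were small against their errors, at 0.10 ± 0.73 for Acvr1, -0.22 ± 0.59 for Acvr2a, 0.24 ± 1.11 for Acvr2b and 0.04 ± 0.83 for Tgfbr3 (all SE). Of the 11 receptors, 8 had positive differences.

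**Figure D4:**
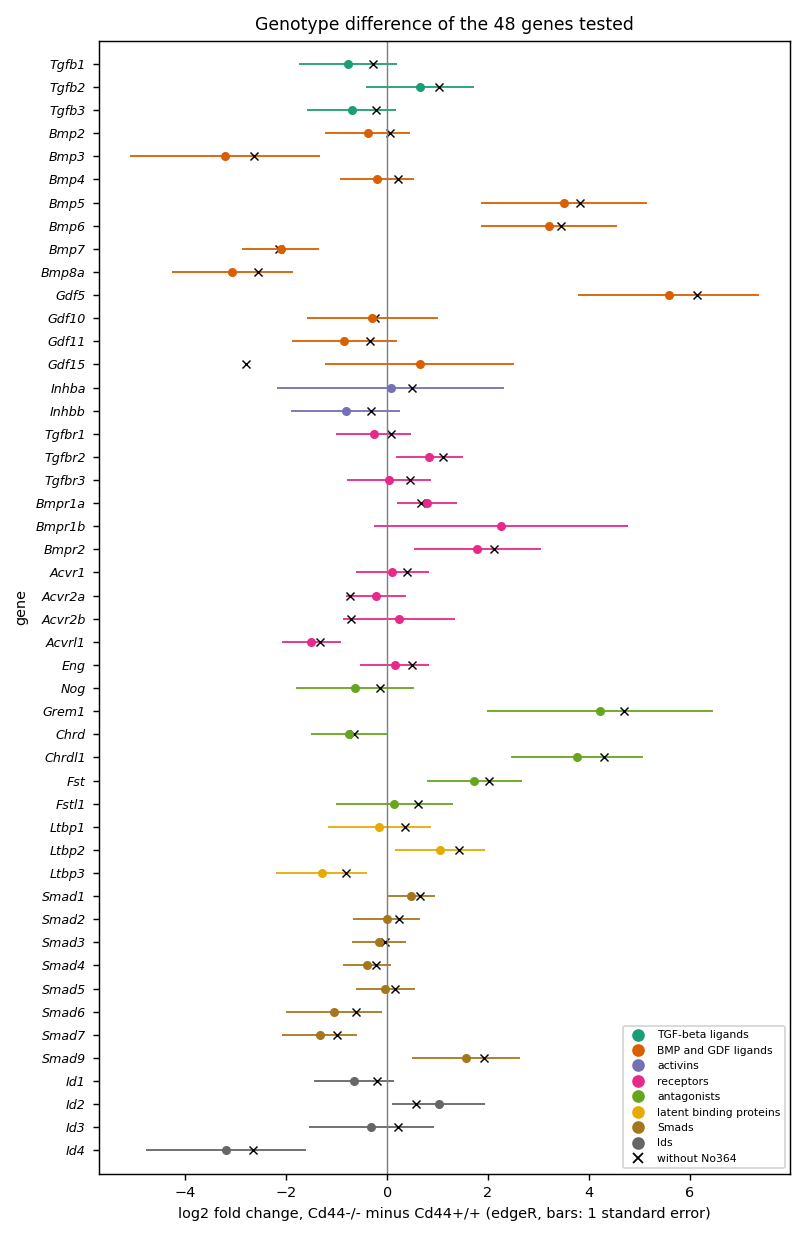
Log2 difference (Cd44-/- minus Cd44+/+) of the 48 genes tested, with bars of 1 SE from the edgeR fit and crosses for the fit without No364. The largest differences are those of Gdf5, Grem1 and Chrdl1 above 0, and of Bmp3, Id4 and Bmp8a below 0.

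The mix of the TGF-beta ligands and of their binding proteins varied from tumor to tumor. Tgfb3 was at 47.7, 88.8 and 85.0 CPM against 41.2, 75.2 and 8.17 CPM, with a log2 difference of -0.70 ± 0.88 (SE, edgeR adjusted p = 0.886), -1.46 without No279 and -0.22 without No364. Tgfb1 was at 35.9, 140.0 and 140.9 CPM against 64.7, 81.4 and 10.2 CPM, and Tgfb2 at 8.47, 65.8 and 68.8 CPM against 36.5, 120.4 and 23.3 CPM. Per length, Tgfb2 made up 6.45% of the 3 ligands in No244, 17.4% to 20.1% in No316, No368 and No203, 35.1% in No279 and 47.6% in No364. Among the latent binding proteins, which tether TGF-beta to matrix, Ltbp3 held the largest share in No203 and the Cd44+/+ tumors, Ltbp1 in No279 (50.6%) and Ltbp2 in No364 (40.8%). Ltbp3 was at 254.7, 114.3 and 111.8 CPM against 125.6, 82.6 and 15.1 CPM, with a log2 difference of -1.30 ± 0.91 (SE, edgeR adjusted p = 0.824), -0.63 without No244 and -1.98 without No203. The order of the genes in both families was thus not shared by the 3 Cd44-/- tumors.

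**Figure D5:**
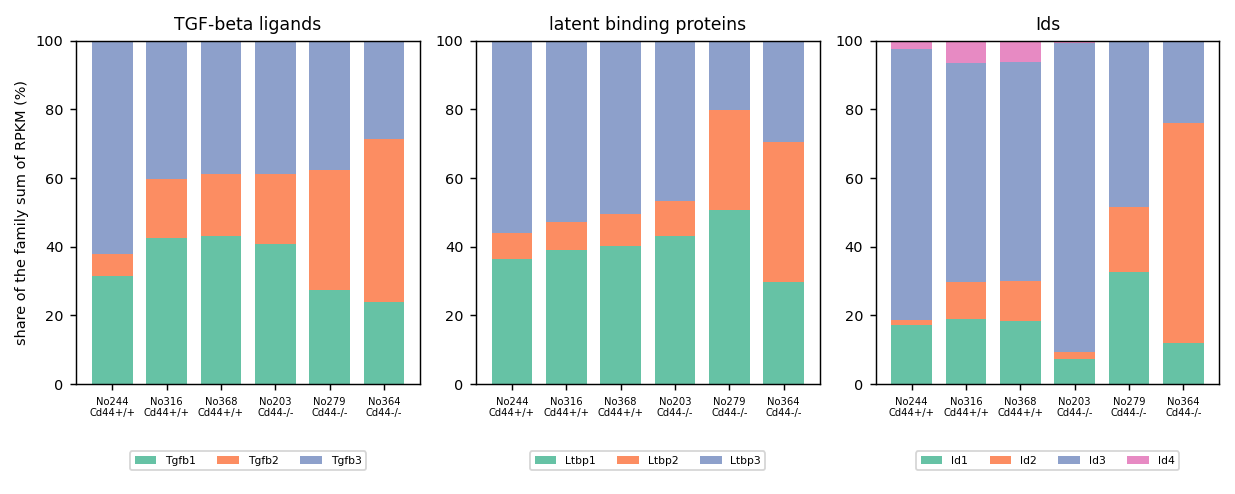
Share of each gene in the summed level per length of its family (percent) for each of the 6 libraries. Tgfb2 takes 35.1% and 47.6% of the TGF-beta ligands in No279 and No364, and at most 20.1% in the other 4 libraries.

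The activin genes were led by Inhbb, at 37.0, 135.6 and 123.2 CPM against 26.7, 107.5 and 8.87 CPM, with a log2 difference of -0.82 ± 1.08 (SE, edgeR adjusted p = 0.887), -2.24 without No279 and -0.33 without No364. Inhba, the other subunit gene, had 0 counts in No244, at 0.119 CPM in No203 and at 11.8, 12.0, 17.1 and 1.96 CPM in No316, No368, No279 and No364, so its presence did not follow the genotype. Among the Smads, Smad4, the shared partner, had the highest level per length (15.2 RPKM) and was at 64.6, 69.3 and 64.8 CPM against 43.5, 69.2 and 37.2 CPM, with a log2 difference of -0.39 ± 0.48 (SE, edgeR adjusted p = 0.882). The inhibitory Smad6 measured 31.0, 30.7 and 29.1 CPM in Cd44+/+ tumors, and 33.5 CPM in No203 but 6.49 and 3.91 CPM in No279 and No364, the tumors with low Sp7, Ibsp and Alpl, whose part in this was not tested. Smad7, the other inhibitory Smad, was at 15.9, 42.7 and 41.6 CPM against 9.89, 19.5 and 5.16 CPM, with a log2 difference of -1.34 ± 0.75 (SE, edgeR adjusted p = 0.818). Smad9, a BMP receptor Smad, was highest in No203 at 23.3 CPM and between 1.76 and 5.70 CPM elsewhere. The remaining receptor Smads, Smad1, Smad2, Smad3 and Smad5, had log2 differences of 0.48, -0.01, -0.16 and -0.04, with SEs from 0.47 to 0.67.

 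Id3, the most abundant member per length (118.5 RPKM), was at 325.5, 157.7 and 154.6 CPM against 464.2, 96.2 and 18.8 CPM, so both its extremes were Cd44-/- tumors. Its log2 difference was -0.31 ± 1.24 (SE, edgeR adjusted p = 0.965), and 0.22 without No364. Id2 made up 64.0% of the Id transcripts per length in No364, where Id3 was not the leading gene. Id1 was at 46.1, 30.6 and 29.1 CPM against 24.1, 42.0 and 6.07 CPM.

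Promoter sequences from RefSeq (GRCm38.p6) are shown for 4 members picked as examples after their values were seen, 3 of them without overlap between genotypes and Grem1 for its level in No279. The first 2 are the 250 bases before the start sites of Bmp8a (chr4:123343253-123343502, minus strand) and Id4 (chr13:48260866-48261115, plus strand), with capitals for GTCTG, the reverse complement of the Smad box CAGAC, in Bmp8a and for GGCGCC, the core of BMP-responsive elements, in Id4. The shorter stretches of Bmp6 (chr13:38345686-38345715, plus strand) and Grem1 (chr2:113758787-113758816, minus strand) show in capitals CCTGCG, an element reported to bind the CD44 intracellular domain, or its reverse complement.
Bmp8a: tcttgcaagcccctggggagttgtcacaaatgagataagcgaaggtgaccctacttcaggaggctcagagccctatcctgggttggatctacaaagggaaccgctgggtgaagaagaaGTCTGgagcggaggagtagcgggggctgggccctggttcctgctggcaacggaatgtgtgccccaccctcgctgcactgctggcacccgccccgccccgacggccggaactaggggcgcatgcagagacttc
Id4: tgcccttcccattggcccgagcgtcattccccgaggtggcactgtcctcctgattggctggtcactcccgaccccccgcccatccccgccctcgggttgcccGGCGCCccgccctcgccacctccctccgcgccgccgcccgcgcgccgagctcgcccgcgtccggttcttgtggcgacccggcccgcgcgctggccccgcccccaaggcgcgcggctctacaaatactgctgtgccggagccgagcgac
Bmp6: gcgcctccagagaCCTGCGggagagtggag
Grem1: gagaggggacccCGCAGGgaagcaggaggg

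On either strand of the 250 bases before the start, CCTGCG was present in 9 of 34 members with a promoter (26.5%), against 15.8% of 27025 genes, and GGCGCC in 9 of 34 (26.5%), against 10.8%. The Smad box CAGAC was in 18 of 34 (52.9%, against 45.8%), and the AP-1 sites TGACTCA or TGAGTCA were in 0 of 34, against 5.16%. A match describes the letters only.

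Of 72 further pathway genes found, 57 were tested and 0 passed the adjusted edgeR threshold, with 2 (3.51%, against 4.26% of all genes) at an unadjusted p under 0.05. Bmp1, the procollagen C-proteinase, measured 1202, 783.9 and 768.7 CPM in Cd44+/+ tumors and 362.9, 153.7 and 100.3 CPM in No203, No279 and No364, with a log2 difference of -2.26 ± 0.83 (SE, edgeR adjusted p = 0.818). Hamp, the iron hormone hepcidin made by hepatocytes, was at 290.5 CPM in No364 and at most 0.673 CPM elsewhere, in the tumor with the high hepatocyte markers. Inha, the inhibin alpha subunit, was at 23.7, 14.5 and 13.7 CPM against 6.21, 1.98 and 0.100 CPM. The genotypes did not overlap for 10 of the 57 (17.5%, against 18.7% of all genes), 3 higher (9.27% of all genes) and 7 lower (9.42%) in Cd44-/- tumors.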

How the data were processed

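Libraries were made from total RNA with a stranded mRNA kit and sequenced single-end. Per the labels, the authors aligned reads with HISAT2 2.0.2 to GRCm38 and counted them per gene with featureCounts (Subread 2.0.0), and the deposited values are raw counts. The strand and multi-mapping settings were not given in the sources used here. Over their whole span, 24 of the 49 members are overlapped by another annotated gene, 20 of them on the opposite strand. Reads of such partners may therefore not be told apart, which was not checked.

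Counts were analysed in R 4.3.3 with edgeR 4.0.16 (TMM, default low-count filter, quasi-likelihood test), with the counts of No316 and No368 summed, and p-values were adjusted by Benjamini-Hochberg over all genes tested. The SE given with an edgeR log2 difference is its absolute value divided by the square root of the F statistic of the test. Alternatives used DESeq2 1.42.0 and limma 3.58.1. Values per length used merged exons of GENCODE release 21. Nothing in the labels beyond the mouse number says how samples were replicated, so p-values measure the spread between these samples. The scripts were tested on simulated data.

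Members and lists were chosen with earlier results of these data known. Values in every library are given for members whose genotypes do not overlap, that DESeq2 called, that were among the 10 smallest edgeR p-values, or that had the highest level per length of their role; others are given briefly. Motifs were searched in RefSeq promoters, found for 34 of 49 members.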

Additional observations from a re-analysis of the deposited data

How the results depend on the processing

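The edgeR and limma-voom fits called 0 genes under every setting run, members and other pathway genes included. DESeq2 called 146 genes of all, 0 members and 1 other pathway gene with the pair summed, and 419, 4 and 1 on the 6 libraries. The other pathway gene was not the same in these runs. It was Inhbe with the pair summed, with 133 counts in No364 and 0 in every other library, and Bmp1 on the 6 libraries. On the libraries as deposited, chosen after seeing the data, it called 940 genes, 4 members and 2 other pathway genes without No244, and 432 genes and 3 members without No364. Members whose genotypes do not overlap numbered 8 to 17 when 1 library was left out, the highest, 35.4%, without No244, No203 or No279, where 38.8%, 37.9% and 28.9% of all genes did not overlap. Of 19 named members, 15 kept their direction in every alternative that gave a value, and 299 of 314 values had the same direction. The alternatives used the same libraries, and many of these members were named for their difference there, so this is no independent support. The 4 with a reversed value, Bmp4, Tgfbr1, Fstl1 and Id3, were named for their level per length only. Tgfb3, Inhbb, Ltbp3 and Smad4, named on the same ground, kept their direction. Scaling by library size alone moved the median log2 difference of all genes by 0.133, and turned Tgfbr1 (0.25) and Id3 (0.15) positive. It also changed the members at an unadjusted p under 0.05 from 2 higher and 3 lower to 3 higher and 0 lower, and those of all genes from 324 and 437 to 637 and 222. Fstl1 was at -0.72 by limma-voom. Leaving out 1 library gave ranges of -0.57 to 0.22 for Bmp4, -0.62 to 0.50 for Tgfbr1, -1.70 to 0.62 for Fstl1 and -2.13 to 0.28 for Id3. With DESeq2, the values were 0.11 for Bmp4 without No364, 0.52 and 0.31 for Tgfbr1 without No244 and without No364, and 0.29 and 0.40 for Id3. The cause was not tested. Without No244 the summed pair is the only Cd44+/+ sample in the edgeR fit, assumed to vary like the other group. The DESeq2 run without No244, also chosen after seeing the data, took the pair as separate samples. The pair was its whole Cd44+/+ group, so its calls are not given. No paired analysis was possible because the genotypes share no replicate numbers. The biological coefficient of variation was 0.804 in the edgeR fit, and Gdf5 and Gdf6 lay near the limit of 3 counts in most Cd44+/+ libraries. Bmp3, Bmp8a and Id4 were near this limit in No364, with 3, 2 and 4 counts, and Bmp6 in No244, with 3 counts.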

Other observations

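A further 4 genes of the pathways, chosen after their values were seen, were high in No244, in No364 or in both. Inhbc, an activin subunit made in liver, was at 49.8 CPM in No364 and at most 0.168 CPM elsewhere. Gdf2, which encodes the circulating ligand BMP9, was at 3.91 CPM in No364, with at most 1 count in any other library. Mstn, myostatin, was at 4.53 CPM in No244 and at most 0.126 CPM elsewhere. Hjv, hemojuvelin, a BMP co-receptor of muscle and liver, was at 79.7 CPM in No244 and 76.4 CPM in No364, and between 0.790 and 8.67 CPM elsewhere. No364 and No244 are the tumors in which the summed hepatocyte and skeletal muscle markers, respectively, were highest, and the part of those tissues in these values was not tested.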
